A study of Homo sapiens with 8 samples.

Results

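HOX genes and other homeobox transcription factor genes were followed across 4 hairpin groups of a skin carcinoma cell line. The set holds every named gene whose symbol is that of a HOX gene or of an ALX, BARX, CDX, DLX, EMX, EN, IRX, LHX, MEIS, MSX, NKX, OTX, PAX, PBX or PITX family gene, or of a relative of SIX4. Of 14884 named genes on the array, 95 belonged to it: 27 HOX genes and 68 genes outside the HOX clusters. The rule uses symbols alone, and it was set with earlier results of these data known. RefSeq lists 114 human genes under the same symbols, and 19 of these had no named probe set and were not analysed here. Of the 27 HOX genes, 1 lies in the HOXA cluster (HOXA2), 10 in HOXB, 7 in HOXC and 9 in HOXD.

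The cells were of the established line SCC13, which comes from a squamous cell carcinoma of human skin. Their total RNA was read on whole-transcript arrays, 2 arrays per hairpin. The tested hairpins were shEZH2, aimed at the enzyme of Polycomb repressive complex 2 that methylates histone H3, and shRING1B and shBMI1, aimed at a pair of proteins of Polycomb repressive complex 1. The control was shGFP, aimed at a jellyfish protein that the cells do not make. All groups carried a hairpin, and none was left without one. The labels name no dose, time or clone. Nothing in them tells whether both arrays of a group are from different cultures, so p-values measure the spread between arrays, which may be technical. All 8 samples are labelled as SCC13, but the shEZH2 titles start with SCCL3 in place of SCC13.

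Homeobox genes encode transcription factors that bind DNA through a homeodomain and set the identity of body regions and cell types. HOX genes stand in 4 clusters, and their order along each cluster follows the order of the body regions in which they act, from anterior (low paralogue numbers) to posterior (high numbers). Polycomb complexes are best known for keeping HOX and other homeobox genes silent outside their own regions: complex 2 methylates histone H3, and complex 1 ubiquitinates histone H2A and compacts chromatin. In skin, HOX genes mark body site, and DLX3 and HOXC13 act in epidermal and hair differentiation. HOX clusters also hold microRNA genes of the miR-196 family, which bind HOX messages, HOXB8 among them.

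Probe sets for these microRNA genes were on the array, and their mature sequences are shown because MIR196A1 is the measured neighbour of HOXB9 on its posterior side. They come from RefSeq on GRCh38.p14 and are written 5′ to 3′, with the seed (bases 2 to 8) in capitals. The copy from the HOXB cluster (MIR196A1, chr17:48632532-48632553, minus strand) and the copy from the HOXA cluster (MIR196B, chr7:27169528-27169549, minus strand) share the seed.
hsa-miR-196a-5p: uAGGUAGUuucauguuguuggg
hsa-miR-196b-5p: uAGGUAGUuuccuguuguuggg
MIR196B was bright, with 10.1 and 10.2 on the shEZH2 arrays, 9.92 and 10.2 with shRING1B, 9.68 and 10.1 with shBMI1, and 9.88 and 10.1 with shGFP. MIR196A1 was dim, at 4.09 and 4.24 with shEZH2, 4.44 and 4.30 with shRING1B, 4.57 and 4.32 with shBMI1, and 4.40 and 4.77 with shGFP. Its groups did not overlap between shEZH2 and shGFP, but the log2 difference of -0.42 ± 0.14 (SE) did not pass limma's test (adjusted p = 0.214). MIR196A2 on chromosome 12 encodes the same hsa-miR-196a-5p sequence. It read 5.69 and 5.91 with shEZH2 and 5.55 and 5.75 with shGFP, which overlapped (0.15 ± 0.15, adjusted p = 0.682 in limma). Such probe sets measure RNA of the locus, and the mature microRNA is not told apart from its precursor or a host transcript. The microRNA genes were chosen for their place in the clusters, after earlier results of these data were known.

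Signals are log2 values after the authors' normalization, and differences are log2 values of the first group named minus the second. A probe set's signal also depends on its probes, so genes are called bright or dim on the array and their amounts of RNA are not compared. A lower signal may reflect fewer cells with the RNA or less RNA per cell, which bulk RNA cannot tell apart. The medians of the arrays ran from 5.49 to 5.52. Over the 95 genes, arrays of one hairpin correlated at 0.984 to 0.989 and arrays of different hairpins at 0.974 to 0.988, values that share the probes and the normalization. EZH2 averaged 8.99 ± 0.05 with shEZH2 and 9.90 ± 0.10 with shGFP (SD, n = 2 each), a log2 difference of -0.91 ± 0.12 (SE; adjusted p = 0.0183 in limma). The genes of BMI1 and RING1B had no named probe set and were not analysed here, so the effect of shBMI1 and shRING1B on their targets was not checked. Keratinocyte markers were measured for 7 of 14 listed genes, and all 7, KRT5, KRT14 and SFN among them, were bright.

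HOXB9 had the widest range over the 8 arrays of any gene of the set, 1.13 log2 units, followed by LHX1 with 1.05. HOXB9 is a posterior HOX gene that takes part in patterning of the thoracic skeleton and mammary gland in the mouse. Its signal was 9.73 and 9.72 on the shEZH2 arrays, 9.29 and 9.09 on the shRING1B arrays, 8.70 and 8.67 on the shBMI1 arrays, and 8.59 and 8.62 on the shGFP arrays. The shEZH2 arrays were the highest and the shRING1B arrays lay between them and the shBMI1 and shGFP arrays, with no overlap among these levels. The shBMI1 arrays lay just above the shGFP arrays.

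With shEZH2, HOXB9 rose 2.17-fold over shGFP. The log2 difference was 1.12 ± 0.09 (SE; 95% interval 0.91 to 1.33), with an adjusted p of 0.00489 in limma. It was the 5th smallest p-value among the 14884 genes. HOXB9 was the 1 gene of the 95 past the threshold of an adjusted p under 0.05, where 0.732% of all genes passed (0.558% higher and 0.175% lower). A fit that blocked on the replicate number gave an adjusted p of 0.00726. The shEZH2 arrays are those whose titles begin with SCCL3, so the hairpin and any difference behind that title cannot be told apart, here or in any other comparison with shEZH2.

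With shRING1B, HOXB9 was 0.59 ± 0.09 (SE) above shGFP, a ratio of 1.5 with a 95% interval of 0.37 to 0.80 on the log2 scale. That p-value ranked 17th among all genes, but its adjusted p was 0.167, and no gene of the array passed in this comparison (0.0% of genes). With shBMI1 the difference was 0.08 ± 0.09 (95% interval -0.13 to 0.29; adjusted p = 0.999), again with 0.0% of all genes past the threshold. These comparisons share the shGFP arrays.

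The difference between hairpins was tested directly. HOXB9 was 2.06-fold higher with shEZH2 than with shBMI1 (1.04 ± 0.09, 95% interval 0.83 to 1.25, adjusted p = 0.00481), where 0.974% of all genes passed. This call was lost without either shEZH2 array (adjusted p = 0.0639 and 0.0662). Between shRING1B and shEZH2 it differed by -0.53 ± 0.09 (95% interval -0.75 to -0.32; adjusted p = 0.0590), and 0.578% of all genes passed. Between shRING1B and shBMI1 it differed by 0.51 ± 0.09 (95% interval 0.30 to 0.72; adjusted p = 0.235), where 0.0134% of all genes passed. In a moderated F test over the 4 groups, HOXB9 had an adjusted p of 0.00806 and was again the 1 gene of the set to pass, against 0.679% of all genes.

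Over all genes, calls between shEZH2 and shGFP became fewer whenever 1 array was left out. The call for HOXB9 depended on single arrays too. Its log2 difference between shEZH2 and shGFP stayed between 1.11 and 1.13 when any 1 array was left out, but the adjusted p became 0.0805 or 0.0690 without either shEZH2 array and 0.0504 without the second shGFP array.

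**Figure D1:**
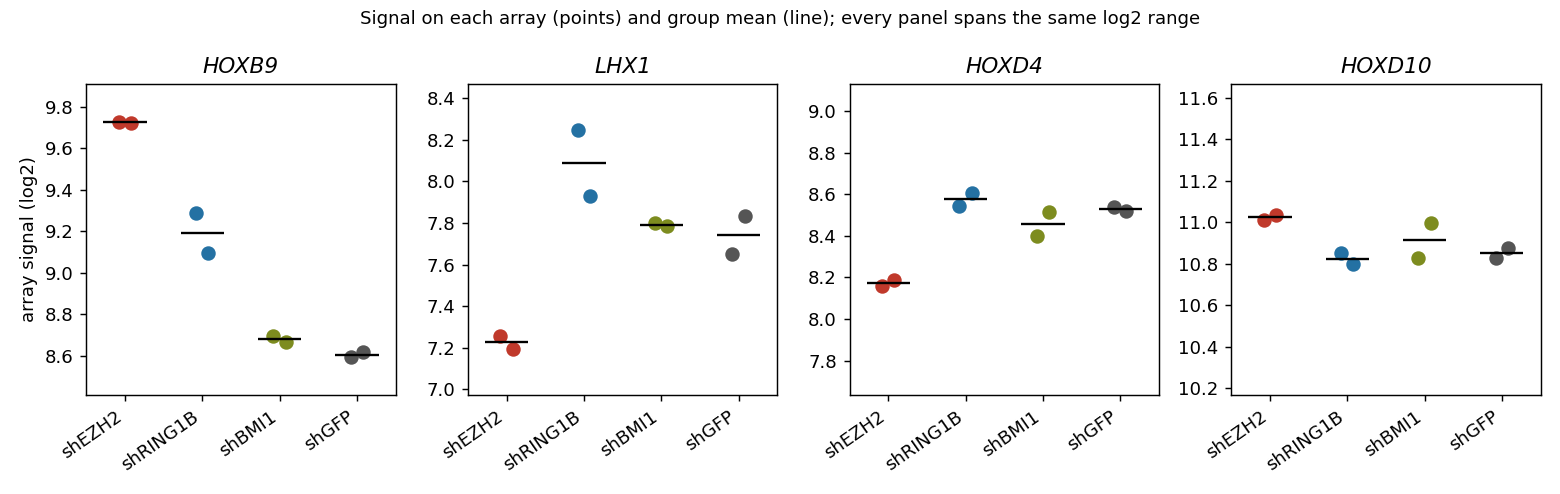
Array signal (log2, vertical axis) of HOXB9, LHX1, HOXD4 and HOXD10 in the 4 hairpin groups (horizontal axis). Each point is 1 array and each line a group mean of 2 arrays, and every panel spans the same log2 range. HOXB9 is highest on the shEZH2 arrays (9.73 and 9.72) and intermediate with shRING1B, LHX1 is lowest with shEZH2 and highest with shRING1B, and HOXD10 lies between 10.8 and 11.0 in every group.

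Some markers of other cell types differed on the same arrays, where 0.732% of all genes passed between shEZH2 and shGFP. Of 9 listed fibroblast markers, 3 were measured. DCN, the collagen-binding proteoglycan decorin, was 8.03 and 7.86 with shEZH2 and 6.94 and 7.08 with shGFP (log2 difference 0.93 ± 0.10, adjusted p = 0.0109 in limma). LUM, the proteoglycan lumican, differed by 0.89 ± 0.23 (adjusted p = 0.120) and TWIST1, a mesenchymal transcription factor, by -0.10 ± 0.09 (adjusted p = 0.639). DCN rose and the other 2 did not pass. The summed signal of the 3 lay at 20.0 to 20.2 with shEZH2, 18.6 with both shRING1B arrays, 19.0 to 19.4 with shBMI1 and 18.1 to 18.7 with shGFP. Among the other marker lists, the dim MLANA (1 of 5 measured melanocyte markers of 6 listed) rose by 0.64 ± 0.11 (adjusted p = 0.0460). MITF, TYR, PMEL and TYRP1 of that list differed by 0.00, -0.01, -0.15 and -0.01. MAP2 (1 of 4 measured neural markers of 6 listed) rose by 0.66 ± 0.11 (adjusted p = 0.0435). SYT1, GFAP and STMN2 beside it differed by -0.01, 0.12 and 0.04. None of 5 endothelial and 3 leukocyte markers passed (2 and 0 had an unadjusted p under 0.05). Among the 7 keratinocyte markers, none passed with shEZH2 and 3 (42.9%) had an unadjusted p under 0.05, beside 16.2% of all genes. KRT14, a keratin of basal cells, was 9.08 and 9.13 with shEZH2 and 9.61 and 9.72 with shGFP (-0.57 ± 0.13, adjusted p = 0.0999), and DSG3, a cadherin of keratinocyte junctions, differed by 0.43 ± 0.13 (adjusted p = 0.176). The summed keratinocyte signal lay at 66.7 to 66.8 with shEZH2, 65.3 to 65.8 with shRING1B, 66.0 to 66.9 with shBMI1 and 67.2 to 67.5 with shGFP, and both shGFP arrays lay above all 6 knockdown arrays. The part of these markers and of other cell types in the HOXB9 result was not tested.

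None of the genes measured around HOXB9 passed the test. Within 500 kb on either side, RefSeq places 55 genes, 19 of them measured by name, and HOXB9 was the 1 gene of the 19 called with shEZH2. HOXB8, the next HOX gene on the anterior side, was 6.70 and 6.83 with shEZH2, 6.79 and 6.63 with shRING1B, 6.66 and 6.90 with shBMI1, and 6.68 and 6.50 with shGFP. HOXB8 with shEZH2 lay just above shGFP without overlap (0.18 ± 0.12, adjusted p = 0.50), and the shRING1B and shBMI1 arrays overlapped the shGFP arrays. HOXB7 differed from shGFP by -0.01 with shEZH2, 0.02 with shRING1B and -0.01 with shBMI1. HOXB13, the most posterior gene of the cluster and a marker of prostate and distal gut, was 6.80 and 6.61 with shEZH2, 6.79 and 7.08 with shRING1B, 6.52 and 6.80 with shBMI1, and 6.62 and 6.77 with shGFP. Its shEZH2 difference was 0.00 ± 0.14 (adjusted p = 0.993).

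The 9 other HOXB genes had a median log2 difference of -0.01 with shEZH2 (range -0.31 to 0.18), 0.12 with shRING1B (-0.29 to 0.24) and -0.01 with shBMI1 (-0.17 to 0.20). The lowest were HOXB5 at -0.31 with shEZH2 (adjusted p = 0.468) and -0.29 with shRING1B (0.746), and HOXB1 at -0.27 with shRING1B (0.669). None of the 9 reached an unadjusted p under 0.05 in any of these comparisons, where 16.2%, 8.6% and 5.58% of all genes did, in the same order. Of the 10 HOXB genes 8 were dim, HOXB9 and HOXB7 being the others. Outside the cluster, CALCOCO2, an autophagy receptor, differed by 0.02 and UBE2Z, a ubiquitin-conjugating enzyme, by -0.05 with shEZH2. IGF2BP1, an RNA-binding protein of the fetal growth programme, differed by -0.31 with shEZH2 (adjusted p = 0.174), -0.14 with shRING1B (0.763) and 0.55 with shBMI1 (0.316). MIR1203, a microRNA gene, was 3.48 and 3.72 with shRING1B against 4.08 and 4.05 with shGFP, without overlap (-0.47 ± 0.11, adjusted p = 0.346). These neighbours were chosen by position, and IGF2BP1 and MIR1203 after their values were seen.

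**Figure D2:**
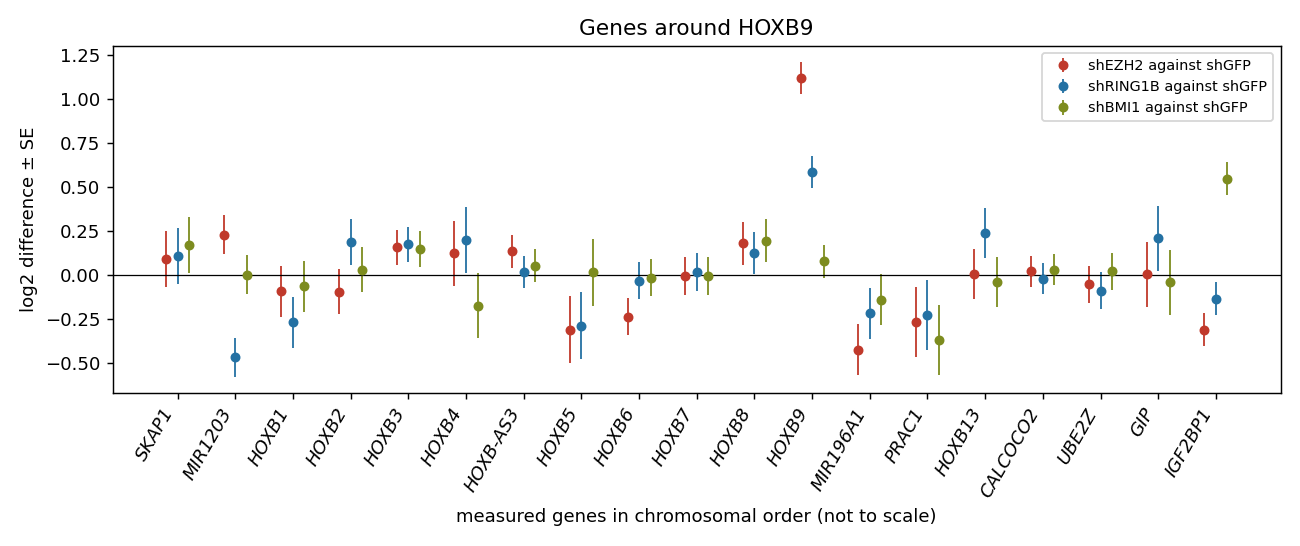
Log2 difference from shGFP (vertical axis, with its SE) for the 19 measured genes within 500 kb of HOXB9, in chromosomal order and not to scale (horizontal axis), one colour per hairpin. HOXB9 is at 1.12 with shEZH2 and 0.59 with shRING1B, while HOXB7 and HOXB8 beside it lie between -0.01 and 0.20.

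Among the other HOX genes, the brightest was HOXD10, which acts in limb patterning. It had 11.01 and 11.04 with shEZH2, 10.85 and 10.80 with shRING1B, 10.83 and 11.00 with shBMI1, and 10.83 and 10.88 with shGFP. The shEZH2 arrays were slightly above the shGFP arrays (0.17 ± 0.09, adjusted p = 0.392) and the others overlapped them.

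HOXD4, which patterns the hindbrain and neck in the mouse, had the lowest shEZH2 difference of any HOX gene. Its arrays read 8.16 and 8.19 with shEZH2, 8.54 and 8.61 with shRING1B, 8.40 and 8.52 with shBMI1, and 8.54 and 8.52 with shGFP. The shEZH2 arrays lay below all the others, at -0.36 ± 0.09 from shGFP (95% interval -0.55 to -0.16), and the adjusted p of 0.105 did not pass. A second HOXD4 probe set differed by 0.03, so the probe sets disagreed, and the mean over both gave -0.16 (adjusted p = 0.366).

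The promoters of this pair are shown because they sit in one cluster and differ in CpG count. Their shEZH2 differences were of opposite sign, but neither passed, and that of HOXD4 rests on 1 of its 2 probe sets. They come from RefSeq on GRCh38.p14, cover 250 bases before to 50 after the gene's start, and are written 5′ to 3′ with each CG in capitals. The HOXD10 window (chr2:176116528-176116827, plus strand) holds 23 CpG sites and the HOXD4 window (chr2:176151300-176151599, plus strand) holds 4.
HOXD10: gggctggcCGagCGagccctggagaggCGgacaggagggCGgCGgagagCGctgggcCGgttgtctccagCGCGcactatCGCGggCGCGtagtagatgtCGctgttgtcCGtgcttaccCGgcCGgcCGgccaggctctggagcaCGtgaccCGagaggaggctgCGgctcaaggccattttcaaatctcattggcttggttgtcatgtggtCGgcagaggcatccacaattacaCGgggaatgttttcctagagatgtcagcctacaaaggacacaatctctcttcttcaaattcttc
HOXD4: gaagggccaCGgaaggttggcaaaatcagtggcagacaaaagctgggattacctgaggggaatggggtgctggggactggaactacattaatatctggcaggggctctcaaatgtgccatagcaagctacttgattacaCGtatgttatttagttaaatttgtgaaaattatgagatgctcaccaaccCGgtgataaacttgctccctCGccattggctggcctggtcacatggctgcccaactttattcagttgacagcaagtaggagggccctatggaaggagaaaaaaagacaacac
Unmethylated CpG islands are known as places where Polycomb complexes bind, but no binding or methylation was measured here. Of the 95 genes, 57 had a promoter in the table, and HOXB9 and LHX1 were not among them. The 57 had a median of 24 CpG sites (4 to 50), and 47 (82.5%) were CpG-rich, defined as an observed over expected CpG ratio of at least 0.6 with more than 50% GC. Of 10749 named genes with a promoter, 65.9% were CpG-rich, and of all 27305 promoters of the same length 46.8% were. The median over the named genes was 23 CpG sites, close to that of the set. The 11 HOX genes with a promoter also had a median of 23, and 8 of them (72.7%) were CpG-rich. Among bright genes of the set the count was 22 of 25 (88.0%), and among dim genes 25 of 32 (78.1%). The shares over all bright and all dim genes were not counted.

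The 7 HOXC genes were close together and mostly bright (6 of 7). With shEZH2, 6 of the 7 were below shGFP, with a median of -0.10 (range -0.21 to 0.05), where 4 of 7 had arrays that lay below shGFP without overlap. Over all genes tested, 51.9% were negative and 27.0% lay below without overlap. Among all bright genes the negative share was higher than this (given below), and 6 of the 7 HOXC genes were bright. HOXC13, which drives hair keratin genes, had 7.70 and 7.62 with shEZH2 against 7.83 and 7.90 with shGFP (-0.21 ± 0.08, adjusted p = 0.278). HOXC11 had 7.84 and 7.76 with shEZH2 against 8.00 and 7.96 with shGFP (-0.18 ± 0.09, adjusted p = 0.369). None of the 7 passed limma's test, and 1, 0 and 0 had an unadjusted p under 0.05 with shEZH2, shRING1B and shBMI1. HOXC medians were -0.07 with shRING1B and -0.02 with shBMI1.

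The 9 HOXD genes had medians of -0.04 with shEZH2, -0.03 with shRING1B and 0.01 with shBMI1. HOXD8 had 7.74 and 7.67 with shEZH2 against 7.89 and 8.08 with shGFP (-0.28 ± 0.10, adjusted p = 0.231). The digit genes HOXD12 and HOXD13 had the highest shBMI1 differences of the HOX genes. HOXD12 read 6.03 and 6.10 with shBMI1 against 5.79 and 5.55 with shGFP (0.39 ± 0.12, adjusted p = 0.736). HOXD13 read 8.31 and 7.97 with shBMI1 against 7.92 and 7.71 with shGFP (0.32 ± 0.15, adjusted p = 0.899). In both, the shBMI1 arrays lay above the shGFP arrays, and neither difference passed. HOXA2, the 1 measured gene of its cluster, had 7.33 and 7.12 with shEZH2 and 6.90 and 7.16 with shGFP, which overlapped.

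Sorting the HOX genes by paralogue number gave medians between -0.07 and 0.10. With shEZH2, the median was -0.02 for the 6 genes of groups 1 to 3, -0.02 for the 9 genes of groups 4 to 8 and -0.07 for the 12 genes of groups 9 to 13. With shRING1B the medians in the same order were 0.10, 0.02 and -0.04, and with shBMI1 they were 0.00, -0.01 and 0.03. Without HOXB9, the 26 HOX genes ranged from -0.36 to 0.19 with shEZH2, -0.29 to 0.24 with shRING1B and -0.17 to 0.39 with shBMI1.

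**Figure D3:**
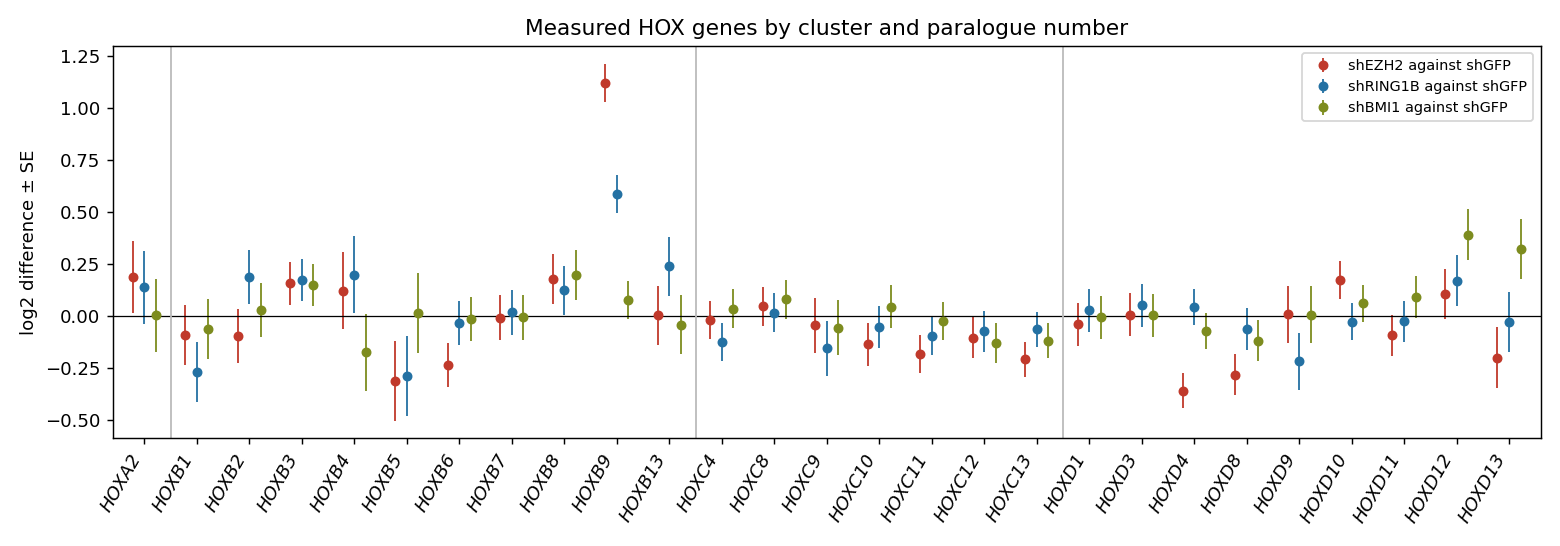
Log2 difference from shGFP (vertical axis, with its SE) of the 27 measured HOX genes, ordered by cluster and paralogue number (horizontal axis), one colour per hairpin. HOXB9 is at 1.12 with shEZH2, and the other 26 genes lie between -0.36 and 0.39 in all 3 comparisons.

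LHX1 was the other gene of the set that passed a test, and only between 2 knockdowns. It encodes a LIM-homeodomain factor needed for head and kidney formation in the mouse. Its signal was 7.26 and 7.20 with shEZH2, 8.25 and 7.93 with shRING1B, 7.80 and 7.79 with shBMI1, and 7.65 and 7.83 with shGFP. The shEZH2 arrays were the lowest and the shRING1B arrays the highest, with the shBMI1 and shGFP arrays in between.

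Between shRING1B and shEZH2, 0.578% of all genes passed. LHX1 was 1.82-fold higher with shRING1B than with shEZH2 (log2 difference 0.86 ± 0.12, 95% interval 0.58 to 1.14, adjusted p = 0.0242 in limma). Against shGFP it differed by -0.52 ± 0.12 with shEZH2 (95% interval -0.79 to -0.24; adjusted p = 0.102), 0.35 ± 0.12 with shRING1B (0.07 to 0.63; adjusted p = 0.466) and 0.05 ± 0.12 with shBMI1 (-0.23 to 0.33; adjusted p = 0.999). The call was lost when only the 4 arrays compared were fitted (adjusted p = 0.105), without either shEZH2 array (0.200 and 0.219), without either shRING1B array (0.107 and 0.0587) and without either shBMI1 array (0.0513 each). Markers differed in the same comparison: between shRING1B and shEZH2, DCN by -0.80 (adjusted p = 0.0186), MAP2 by -0.95 (0.0135) and the keratinocyte marker DSG3 by -1.01 (0.0187). Their part in the LHX1 result was not tested.

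The MEIS and PBX genes encode the partners with which HOX proteins bind DNA. Of 6 measured, 5 were lower with shEZH2 than with shGFP, and all 5 without overlap, with a median of -0.23. Of all genes, 27.0% lay lower without overlap. None of the 6 passed limma's test, and 3 had an unadjusted p under 0.05, beside 16.2% of all genes. PBX3 had 6.75 and 6.98 with shEZH2, 6.94 and 6.91 with shRING1B, 7.28 and 7.01 with shBMI1, and 7.22 and 7.28 with shGFP. Its shEZH2 difference was -0.39 ± 0.12 (adjusted p = 0.176) and its shRING1B difference -0.33 ± 0.12 (adjusted p = 0.475). MEIS1 had 5.50 and 5.53 with shEZH2 against 5.92 and 5.74 with shGFP (-0.31 ± 0.10, adjusted p = 0.183). MEIS2 differed by -0.27 (adjusted p = 0.302), but its second, dimmer probe set by -0.04. PBX2, the second brightest gene of the set, had 9.35 and 9.27 with shEZH2 against 9.45 and 9.53 with shGFP, and its 6 probe sets differed by -0.18 to -0.22. Several of the 6 carried identical values and are not separate measurements. MEIS3 was the exception at 0.17. The medians of the 6 genes were -0.10 with shRING1B and -0.01 with shBMI1.

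None of the 68 genes outside the HOX clusters passed limma's test against shGFP. An unadjusted p under 0.05 was found for 11 (16.2%) with shEZH2, 6 (8.82%) with shRING1B and 6 (8.82%) with shBMI1, beside 16.2%, 8.6% and 5.58% of all genes. MSX2, a target of BMP signalling in skull and hair follicle, was 6.66 and 6.57 with shEZH2, 6.60 and 6.71 with shRING1B, 6.59 and 6.71 with shBMI1, and 6.39 and 6.28 with shGFP. All 6 knockdown arrays lay above both shGFP arrays, with differences of 0.28 ± 0.09 (adjusted p = 0.208), 0.32 ± 0.09 (0.403) and 0.32 ± 0.09 (0.722), which share the shGFP arrays. MSX1 had 7.35 and 7.58 with shBMI1 against 7.10 and 7.23 with shGFP (0.30 ± 0.10, adjusted p = 0.794). ALX4, a skull and limb gene, differed by 0.28, 0.25 and 0.34 with shEZH2, shRING1B and shBMI1, with adjusted p-values of 0.245, 0.560 and 0.722.

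The largest remaining shEZH2 increases were those of OTX2, a forebrain and eye gene, at 0.34 (adjusted p = 0.193), IRX6 at 0.33 (0.442), EMX2, which acts in forebrain and urogenital tract, at 0.30 (0.221), and DLX4 at 0.29 (0.200). OTX2 was among the dimmest genes of the set, with 5.02 and 4.92 with shEZH2, 4.60 and 4.73 with shRING1B, 5.03 and 4.86 with shBMI1, and 4.73 and 4.53 with shGFP. NKX6-3, a stomach gene in the mouse, had the largest shRING1B decrease, with 5.28 and 5.17 with shRING1B against 5.86 and 5.54 with shGFP (-0.47 ± 0.12, adjusted p = 0.346). Its shBMI1 arrays, at 5.38 and 5.52, also lay below the shGFP arrays (-0.25, adjusted p = 0.905). None of these dim genes passed.

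DLX3, a regulator of epidermal differentiation, was 8.82 and 8.58 with shEZH2, 8.29 and 8.63 with shRING1B, 8.26 and 8.62 with shBMI1, and 8.49 and 8.74 with shGFP, and each knockdown overlapped shGFP. IRX2 had 8.78 and 8.73 with shBMI1 against 8.96 and 8.99 with shGFP (-0.22, adjusted p = 0.881), and its shEZH2 and shRING1B differences were -0.02 and 0.00. EN2, a midbrain and hindbrain gene, was 8.63 and 8.68 with shEZH2 against 8.55 and 8.38 with shGFP (0.19). The 8 PAX genes were all dim, and their differences from shGFP ranged from -0.19 to 0.21.

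SIX4, a muscle and kidney factor, was 8.95 and 9.0 with shEZH2, 9.0 and 8.72 with shRING1B, 8.96 and 8.67 with shBMI1, and 8.96 and 8.66 with shGFP, and all groups overlapped. ALX1, a gene of the developing face, was 7.98 and 7.81 with shEZH2 against 8.08 and 8.12 with shGFP, which did not overlap (-0.20 ± 0.12, adjusted p = 0.449). PITX1, which specifies the hindlimb, was 7.68 and 7.69 with shEZH2 against 7.73 and 7.67 with shGFP, which overlapped (-0.01 ± 0.10, adjusted p = 0.963). NKX1-2 was 7.66 and 7.42 with shEZH2, 7.55 and 7.51 with shRING1B, 7.35 and 7.25 with shBMI1, and 7.37 and 7.17 with shGFP. Its shEZH2 and shRING1B arrays lay above the shGFP arrays, at 0.27 (adjusted p = 0.295) and 0.26 (0.582), and the shBMI1 arrays overlapped them.

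OTX1, which acts in forebrain development in the mouse, was 7.63 and 7.66 with shEZH2, 7.65 and 7.35 with shRING1B, 7.55 and 7.54 with shBMI1, and 7.70 and 7.75 with shGFP. All 6 knockdown arrays lay below the shGFP arrays, at -0.08 (adjusted p = 0.753), -0.23 (0.625) and -0.18 (0.950). LHX3, a pituitary and motor neuron factor, was 6.92 and 6.77 with shBMI1 against 7.24 and 6.97 with shGFP, without overlap (-0.26, adjusted p = 0.919). The dim LIM-homeodomain gene LHX4 was 5.04 and 5.15 with shRING1B against 4.95 and 4.55 with shGFP, without overlap (0.35, adjusted p = 0.632). NKX2-8 was 6.70 and 6.81 with shBMI1 against 6.32 and 6.54 with shGFP, again without overlap (0.32, adjusted p = 0.795).

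Of the 15 brightest genes outside the clusters, the 5 not yet described differed from shGFP by -0.09, -0.06 and 0.09 (IRX3), -0.11, -0.12 and 0.01 (DLX1), 0.09, 0.10 and -0.04 (IRX4), -0.02, -0.13 and -0.06 (DLX2) and -0.07, 0.07 and 0.03 (SIX2) with shEZH2, shRING1B and shBMI1. IRX3 was the brightest of these 5, with a mean of 8.79 over the 8 arrays. By family, differences from shGFP over the 3 knockdowns ranged from -0.18 to 0.29 in the 6 DLX genes, -0.22 to 0.33 in the 6 IRX genes, -0.09 to 0.17 in SIX4 and its 4 measured relatives, -0.47 to 0.32 in the 12 NKX genes and -0.52 to 0.35 in the 8 LHX genes.

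**Figure D4:**
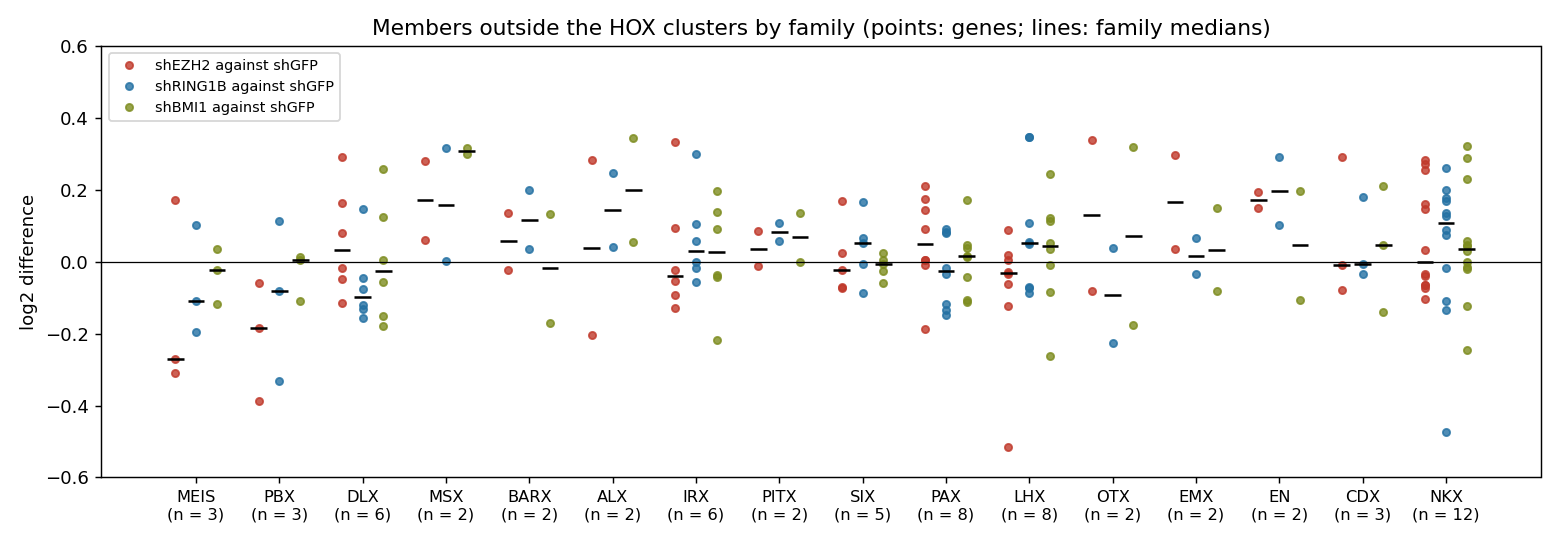
Log2 difference from shGFP (vertical axis) of the 68 genes outside the HOX clusters, grouped by family (horizontal axis, with the number of genes), one colour per hairpin. Points are genes and lines are family medians; LHX1 with shEZH2 (-0.52) and NKX6-3 with shRING1B (-0.47) are the lowest points, and none of the 68 passed against shGFP.

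Over all 95 genes, medians lay near those of the whole array. The median log2 difference was -0.01 with shEZH2, 0.03 with shRING1B and 0.01 with shBMI1, beside -0.01, 0.00 and -0.01 over all 14884 genes. An unadjusted p under 0.05 was found for 15 genes (15.8%) with shEZH2, 7 (7.37%) with shRING1B and 7 (7.37%) with shBMI1, beside 16.2%, 8.6% and 5.58% of all genes. The arrays did not overlap shGFP for 42 genes (44.2%) with shEZH2, 21 higher and 21 lower, where 50.1% of all genes did not (23.1% higher and 27.0% lower). With shRING1B the count was 32 (33.7%, against 37.3% of all genes) and with shBMI1 34 (35.8%, against 31.8%). The shares of the set were thus near those of the whole array. The 95% interval of a gene of the set reached 0.26 log2 units to either side in the median (0.19 to 0.45).

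Dim genes made up more than their share of the set. A gene was called bright when its mean over the 8 arrays was at least 6.80, the median of all genes tested. By this measure 38 of the 95 genes were bright (40.0%) and 57 dim, and 6 were at or above the 75th percentile of 8.62. HOX genes were bright in 15 of 27 cases (55.6%) and the genes outside the clusters in 23 of 68 (33.8%). HOXB genes were bright in 2 of 10 cases, HOXC genes in 6 of 7 and HOXD genes in 6 of 9. CDX4, an intestinal and blood-forming gene in development, was the dimmest at a mean of 4.24.

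Replicate spread was smaller in bright genes, with a median SD within hairpins of 0.102 in bright and 0.127 in dim genes of the set, beside 0.0872 and 0.145 over all genes. With shEZH2, 8 of the 38 bright genes (21.1%) and 7 of the 57 dim genes (12.3%) had an unadjusted p under 0.05, beside 20.0% of all bright and 12.3% of all dim genes. Direction differed with brightness too: 26 of the 38 bright genes (68.4%) and 24 of the 57 dim genes (42.1%) were lower with shEZH2 than with shGFP, beside 60.9% of all bright and 42.9% of all dim genes. The same split was thus present across the array. RMA can compress differences of dim probe sets, which was not measured here.

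**Figure D5:**
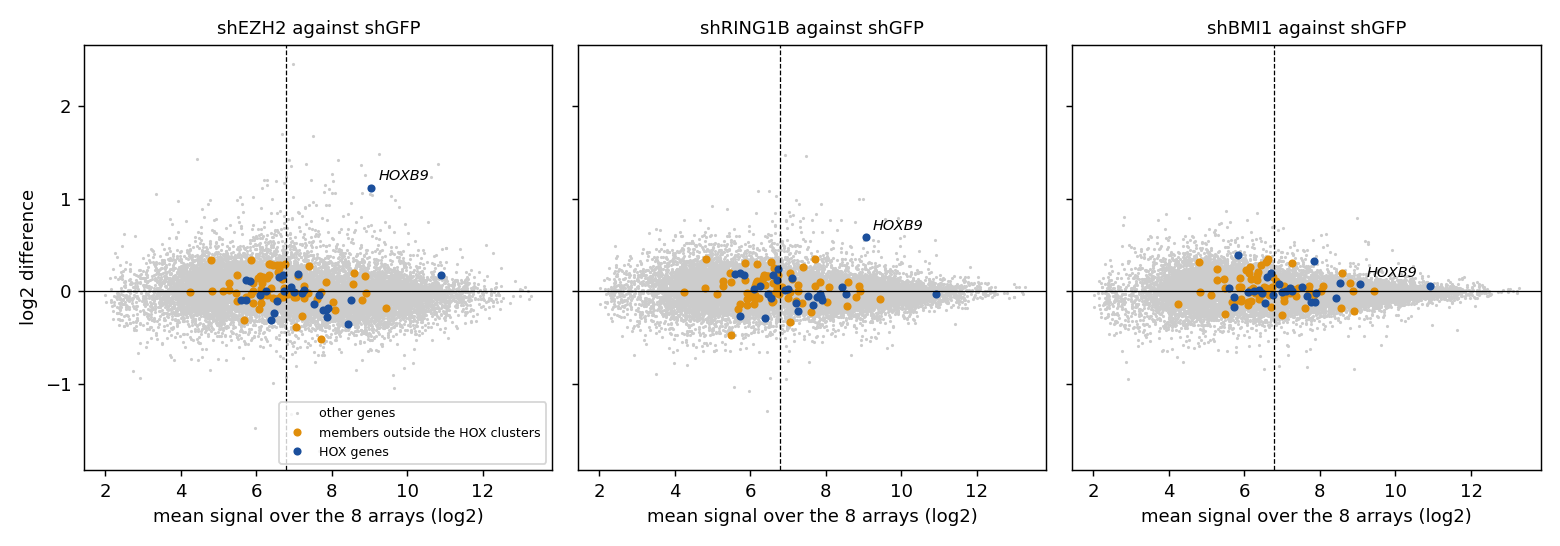
Log2 difference from shGFP (vertical axis) against mean signal over the 8 arrays (log2, horizontal axis) for shEZH2, shRING1B and shBMI1. Grey points are other genes, orange points genes of the set outside the HOX clusters and blue points HOX genes, and the dashed line at 6.80 divides dim from bright; HOXB9 is at 1.12, 0.59 and 0.08.

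Other homeobox genes, not in these families, were measured for 79 of 97 listed genes. MKX, a tendon transcription factor, rose with shEZH2 by 1.01 ± 0.12 (adjusted p = 0.0123), where 0.732% of all genes passed. The list's median was 0.11 with shEZH2, 0.02 with shRING1B and 0.05 with shBMI1, and 26 of 79 genes (32.9%) were negative with shEZH2, beside 51.9% of all genes and 42.9% of all dim genes, where 57 of the 79 were dim. No gene of this list passed with shRING1B or shBMI1. An unadjusted p under 0.05 was found for 6 and 9 of the 79, beside 8.6% and 5.58% of all genes. Between shEZH2 and shBMI1, 0.974% of all genes passed, and MKX was higher by 1.06 with shEZH2. The neural factors ISL1 (-0.57, adjusted p = 0.0488) and POU4F1 (-0.62, adjusted p = 0.0490) and the zinc-finger homeobox gene ZFHX4 (-0.84, adjusted p = 0.00845) were lower with shEZH2. Against shGFP, ZFHX4 was at -0.16 with shEZH2 and 0.68 with shBMI1 (adjusted p = 0.223), POU4F1 at -0.09 and 0.53 (0.542), and ISL1 at -0.51 (0.0762) and 0.06. The gap was thus mostly on the shBMI1 side for ZFHX4 and POU4F1 and on the shEZH2 side for ISL1.

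Regulators of the HOX genes were read out from lists as well. Of 32 measured Polycomb genes (of 40 listed), EZH2 itself fell with shEZH2 and no other passed. An unadjusted p under 0.05 was found for 7 (21.9%), the targeted EZH2 among them, beside 16.2% of all genes. Of 16 measured genes for enzymes that oppose Polycomb at HOX genes or for their partner proteins (of 31 listed), none passed with shEZH2. The partner protein gene ARID1A was the 1 (6.25%) with an unadjusted p under 0.05. A further list held genes of retinoic acid signalling, which induces HOX genes in the embryo, and other HOX inducers (7 measured of 23 listed). CDX2 and CDX4 in this list belong to the set itself. DHRS3, an enzyme that turns retinaldehyde back to retinol, rose with shEZH2 by 1.19 ± 0.17 (adjusted p = 0.0260). DHRS3 and CDX2 were the 2 of the 7 (28.6%) with an unadjusted p under 0.05. A list of noncoding genes of the HOX clusters also held PRAC1, which RefSeq gives as protein-coding. Of the 21 genes listed 10 were measured, PRAC1 among them, and none passed with shEZH2, with 1 of the 10 at an unadjusted p under 0.05. HOTAIR, a noncoding RNA of the HOXC cluster, was dim and differed by -0.22 ± 0.11 (adjusted p = 0.350). None of the genes in these 4 lists passed with shRING1B or shBMI1. An unadjusted p under 0.05 was found for 1 Polycomb gene and 2 retinoic acid genes with shRING1B, for no gene of the other 2 lists with it, and for no gene of the 4 lists with shBMI1, where 8.6% and 5.58% of all genes had one.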

How the data were processed

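Expression was measured on 8 whole-transcript arrays of SCC13 cells in 4 hairpin groups of 2, taken from the shRNA field of the labels. The deposited values are log2 signals per probe set that the authors made with RMA, which corrects background, equalizes the distributions of the arrays and summarises probes. RMA and limma are named in the submitters' processing notes, with no version. The build behind the probe sets is not given in the sources used here. A shift common to most genes is removed by this step.

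The table held 53617 probe sets with 0 missing values. The platform's annotation paired 16098 with 1 gene symbol, 0 with several and 37519 with none. Symbols were updated through RefSeq (GRCh38.p14), which was also used for the order of genes. The brightest probe set stood for its gene (7 genes of the set had several, and the 95 genes had 106 in all).

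Group means over all 8 arrays were fitted with limma 3.58.1 in R 4.3.3 (4 residual degrees of freedom) on all 14884 genes. Two-sided p-values were adjusted by Benjamini-Hochberg within each of 6 comparisons, and an adjusted p under 0.05 was called. Errors after a difference are SEs of this fit. An exact permutation test of 2 arrays against 2 cannot go below p = 0.333, and the number of arrays limits the precision. The fit was tested on simulated data.

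The genes of the set, HOXB9 as a gene of interest, the lists and the tests were chosen with earlier results of these data known. Named were HOXB9, some of the other HOX genes, among the genes outside the clusters the 15 brightest and any called gene, the 5 largest increases and decreases against shGFP, EZH2, and called genes of the lists. Other genes named as examples (neighbours of HOXB9, microRNA genes, family members and markers) were chosen after their values were seen. Replicate numbers come from the titles. Deviations of same-numbered arrays correlated at 0.000656 to 0.248, with 4 of 6 pairs under 0.1, so the numbers were not taken to pair the arrays.

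Alternatives were a block for the replicate number, a fit of the 4 arrays compared alone, quantile normalization, median centring, the 30% dimmest genes left out, averaged probe sets, a robust variance with an intensity trend, a split of dim and bright at the 75th percentile, and leaving out each array.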

Additional observations from a re-analysis of the deposited data

Results flagged for a closer look

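Results are listed here where the effects of 2 hairpins differed in a direct test. LHX1 was higher with shRING1B than with shEZH2 by 0.86 on the log2 scale (adjusted p = 0.0242 in limma), with both shRING1B arrays above both shEZH2 arrays. HOXB9 was higher with shEZH2 than with shBMI1 by 1.04 (adjusted p = 0.00481), again in both arrays of each group, and the adjusted p became 0.0639 or 0.0662 without either shEZH2 array. The difference between the hairpins also holds any difference between the cells behind the arrays whose titles begin with SCCL3 and the others, and the 2 cannot be told apart.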

How the results depend on the processing

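With 2 arrays per group, single arrays decided the calls. Of the 95 genes, those called between shEZH2 and shGFP numbered 1 (HOXB9), 3 without the dimmest 30% of genes and 3 with a trended robust variance (HOXB9, HOXD4 and LHX1 in both), and 0 to 1 when an array was left out. The log2 difference of HOXB9 lay between 1.10 and 1.17 over the 7 settings that leave out no single array, with adjusted p-values of 1.62e-05 to 0.0268. Only quantile normalization and median centring could move this difference, because the other settings keep its group means. This range is thus no test of its size. Between shRING1B and shGFP the count was 0, 1 with the trended variance (HOXB9, adjusted p = 0.0116) and 0 to 0 with an array left out. Between shRING1B and shEZH2 it was 1, 0 with only the 4 arrays compared, 3 without the dimmest genes and 3 with the trended variance (HOXB9, HOXD4 and LHX1 in both), and 0 to 1 with an array left out. Between shRING1B and shBMI1 it was 0, and 1 with the trended variance (HOXB9, adjusted p = 0.0233). Between shEZH2 and shBMI1 it was 1, 2 without the dimmest genes, 3 with the trended variance, and 0 to 1 with an array left out. The F test gave 1, 2 without the dimmest genes, 3 with the trended variance, and 0 to 1 with an array left out. The filter kept 85 of the 95 genes. The causes of these changes were not tested. Over all genes, calls between shEZH2 and shGFP numbered 109 (0.732%), 409 without the dimmest genes (3.93%), 648 with the trended variance (4.35%) and 39 with only the 4 arrays (0.262%). In the same order, the shares were 0.578%, 3.46%, 3.73% and 0.141% between shRING1B and shEZH2. Between shEZH2 and shBMI1 they were 0.974%, 4.27%, 4.30% and 0.383%. With the trended variance, 0.242% of all genes passed between shRING1B and shGFP and 0.255% between shRING1B and shBMI1. A block for the replicate number left the counts of called genes of the set at the same values in all 6 comparisons (HOXB9 between shEZH2 and shGFP, adjusted p = 0.00726). A split at the 75th percentile left 6 bright genes in place of 38. None of 180 recomputed medians of the HOX and other homeobox genes moved by more than the spread between replicates, and they lay between -0.11 and 0.08. That spread, the SD of array medians within hairpins, was 0.097 for HOX genes and 0.093 for the others. It is about as wide as the medians, so this comparison cannot show that a median kept its size or sign. With an array left out, the HOX median between shEZH2 and shGFP ran from -0.09 to 0.01. Of the 95 genes 57 were dim, and any compression of their differences by RMA was not measured.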
